A study of Mus musculus with 46 samples.

Results

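The microRNAs (miRNAs) mmu-miR-183, mmu-miR-96 and mmu-miR-182 lie next to each other on mouse chromosome 6 and are made from one primary transcript. They were chosen by name, as the rows of the deposited signal table that carry these names, which gave 3 of the 334 mouse miRNAs on the array and 12 of its 1336 spots. They were followed over 46 arrays, 1 per sample, of which 41 were hybridised with primary mammary tumors of 8 engineered mouse lines and 5 with normal gland. Tumors with basal features came from C3TAg mice (FVB strain, 5 tumors; viral T antigens driven by the C3(1) promoter, which comes from a rat gene of the prostate), from p53-/- mice (Balb/C, 7 tumors; the study describes them as transplants with cre under the MMTV promoter) and from Brca1-/-p53+/- mice (129B6/FVB, 5 tumors; cre under the MMTV promoter). Tumors with luminal features came from 5 FVB lines with an oncogene under the promoter of the mouse mammary tumor virus (MMTV), which is active mainly in mammary epithelium. Among these, 6 tumors were MMTV-PymT, whose transgene is the middle T antigen of polyomavirus, and 5 were MMTV-H2N, with the receptor Her2/neu. A further 5 were MMTV-Hras, 4 were MMTV-Wnt and 4 were MMTV-C-Myc. The study describes 5 normal glands of pregnant FVB mice and does not give the number of animals behind them, so the spread among glands may be less than that between animals. The classes basal and luminal are those of the study. The effect of the model cannot be told apart from that of the strain in p53-/- and Brca1-/-p53+/- tumors, nor from that of transplantation in the former.

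A miRNA pairs through its seed, the bases near its 5′ end, with sites in messenger RNAs and lowers their stability and translation. The miR-183 cluster is best known from sensory organs, where it is abundant in hair cells and photoreceptors and where changes in the seed of miR-96 cause hearing loss in mice and people. Its members are also found at raised levels in many human carcinomas. In human breast cancer cells miR-96 and miR-182 lower the transcription factor FOXO1, and in human cancer cells miR-183 lowers ezrin, a linker between membrane and cytoskeleton.

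The mature sequences are shown because the members resemble one another and yet did not move together in every model. They are the 5p strands from RefSeq (build GRCm38.p6), and all 3 members were matched by name. The array's names carry no arm, and the probe sequences were not used here. Capitals mark the seed, bases 2 to 8.
mmu-miR-183-5p: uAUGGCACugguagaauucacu
mmu-miR-96-5p: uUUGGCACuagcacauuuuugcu
mmu-miR-182-5p: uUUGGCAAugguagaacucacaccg
All 3 held the letters UGGCA at bases 3 to 7, as did 5 of the 1738 mature mouse miRNAs in the table (0.288%). Over bases 2 to 7 miR-96 and miR-182 were identical, and over the 7 seed bases they differed at 1, as did miR-183 and miR-96. No other miRNA of the array shared bases 2 to 7 with a member. Counted from base 1 over their whole length, miR-183 and miR-182 had the same base at 18 of 22 positions (81.8%), miR-183 and miR-96 at 13 of 22 (59.1%) and miR-96 and miR-182 at 12 of 23 (52.2%). How far a probe for one member binds another was not tested.

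The 3 hairpins lie on the minus strand at chr6:30165918-30169737 (GRCm38.p6), a span of 3820 bases. The Mir183 hairpin (chr6:30169668-30169737) and the Mir96 hairpin (chr6:30169446-30169551) are separated by 116 bases, and the Mir182 hairpin (chr6:30165918-30165992) lies a further 3453 bases downstream. All 3 are inside the annotated long noncoding RNA gene Mirc35hg (chr6:30158640-30174125).

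Scaled levels are log2 intensities from which the array's median was subtracted, averaged over the 4 spots of a miRNA, and signals are unscaled. The floor of an array is the 5th percentile of its spots, and a value was counted as measured above background when its signal exceeded 3 times the floor. The arrays differed in range. The floor was 92.7 to 241 on C3TAg arrays and 61.4 to 114 on p53-/- arrays, against at most 61.3 on luminal and normal gland arrays. On Brca1-/-p53+/- arrays it spread from 20.5 to 147. Further, 31 to 85 miRNAs exceeded 3 times the floor on C3TAg arrays against 172 to 304 on luminal ones. The 4 spots of a miRNA had a median SD of 0.25 on the log2 scale over all arrays. Per array this median was 0.078 to 1.23, and it was highest on Brca1-/-p53+/- replicates 1, 2 and 3 (1.23, 0.89 and 0.76) and MMTV-H2N replicate 1 (0.76). RNA was taken from whole tissue, so fewer cells of a type and less of a miRNA per cell cannot be told apart.

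All 3 members differed among the 9 groups, and MMTV-Hras tumors had the highest mean of miR-182 and miR-183. For miR-96 the means of MMTV-Hras (3.38) and MMTV-Wnt tumors (3.30) were not told apart, and without the third MMTV-Wnt tumor that of MMTV-Wnt was the higher (4.36). The moderated F statistic was 22.8 for miR-182 (adjusted p = 3.83e-13), 13.0 for miR-183 (adjusted p = 2.55e-09) and 11.3 for miR-96 (adjusted p = 1.88e-08). Since 98.2% of all 334 miRNAs passed this test, passing it does not set the cluster apart. Over the 36 pairs of groups, miR-182 differed in 26, miR-96 in 24 and miR-183 in 21, where the adjustment covered all miRNAs and pairs and 56.8% of those tests passed. The median over all miRNAs was 21 pairs.

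**Figure D1:**
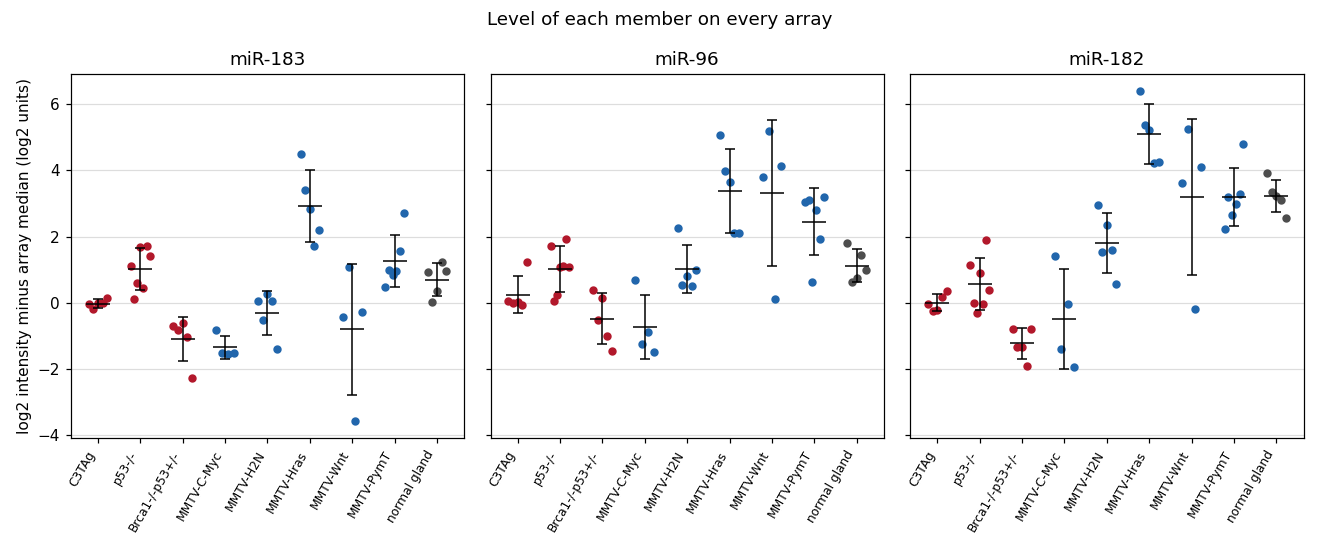
Level of miR-183, miR-96 and miR-182 on each of 46 arrays (points; log2 intensity minus array median) by group, with the mean and SD in black; basal models are red, luminal models blue and normal gland grey. MMTV-Hras tumors have the highest means of miR-183 and miR-182, and replicate 3 of MMTV-Wnt lies far below the other MMTV-Wnt tumors.

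In MMTV-Hras tumors miR-182 was among the bright signals of the array. The unscaled signals of the 5 tumors were 19935, 15572, 18623, 10073 and 15089, and the scaled levels were 6.40, 5.36, 5.22, 4.21 and 4.25. All 5 lay above every normal gland, where the signals were 2586, 2727, 3944, 2836 and 2930 and the scaled levels 3.91, 3.34, 3.23, 3.09 and 2.57. The difference of 1.86 ± 0.62 (standard error; 3.63-fold) passed the test (adjusted p = 0.00983), and it did so under all 64 alternative settings, as did those of the other members.

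miR-183 and miR-96 were also high in MMTV-Hras tumors. The scaled levels of miR-183 were 4.50, 3.40, 2.83, 1.71 and 2.21 in the tumors and 0.93, 0.03, 0.34, 1.24 and 0.95 in normal gland. The groups did not overlap, and the tumors were higher by 2.23 ± 0.53 (4.70-fold, adjusted p = 0.000362). For miR-96 the tumors stood at 5.05, 3.99, 3.66, 2.11 and 2.11 and the glands at 1.80, 0.63, 0.76, 1.44 and 0.98, again without overlap, a difference of 2.26 ± 0.61 (4.80-fold, adjusted p = 0.00165). The same arrays were thus high for all 3 members, with replicate 1 the highest in each. For miR-182 and miR-183 the MMTV-Hras tumors stood above all 8 other groups in the pairwise tests, and for miR-96 above 6, with no call against MMTV-Wnt or MMTV-PymT.

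MMTV-PymT tumors had high miR-182 and miR-96 too. The scaled level of miR-182 ran from 2.23 over a median of 3.09 to 4.79, at unscaled signals of 2978 to 16480, and it overlapped that of normal gland. miR-96 ran from 0.63 to 3.21 with a median of 2.92, and its mean was higher than in normal gland by 1.33 ± 0.59, close to the threshold (adjusted p = 0.0499, 0.0622 with the replicate number as a block, and lost on leaving out any of 35 single arrays). Replicate 3 held the lowest miR-96 value, and its 4 spots disagreed, with signals of 29.1, 3565, 3641 and 3977. miR-183 in these tumors was between 0.49 and 2.70 and was not called against normal gland (adjusted p = 0.360).

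MMTV-Wnt tumors were the group in which the members parted. miR-182 stood at 3.61, 5.24, -0.20 and 4.11 and miR-96 at 3.79, 5.17, 0.12 and 4.13, while miR-183 stood at -0.44, 1.09, -3.58 and -0.27. In 3 of the 4 tumors miR-96 was above the lowest MMTV-Hras tumors, while in none did miR-183 reach the lowest MMTV-Hras tumor. For miR-182, 5.24 lay above the lowest MMTV-Hras tumor (4.21), and 4.11 and 3.61 lay below it. The mean of miR-182 over all 4 tumors was lower than in MMTV-Hras tumors by 1.90 ± 0.66 (adjusted p = 0.0129). Against normal gland miR-96 was higher by 2.18 ± 0.65 (adjusted p = 0.00397), miR-183 was lower by 1.50 ± 0.56 (adjusted p = 0.0200) and miR-182 was not called (adjusted p = 0.966). The direction for miR-183 rests on the scaling, since its unscaled geometric mean signal was 593 in MMTV-Wnt tumors and 515 in normal gland.

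The third MMTV-Wnt tumor was the lowest of its group for every member. On that array the summed signal of the 5 members of the miR-200 family, which marks epithelium, was 1466, against 475275, 419314 and 148663 on the other 3, and their mean scaled level was -2.49 against 5.41, 6.28 and 5.55. The summed signal of 4 stromal and smooth muscle miRNAs was 86273 there and 166087 to 558184 on the others, and that of 4 leukocyte miRNAs was 114479 against 7832 to 44925. The part of these in the low member values was not tested. Without that tumor the MMTV-Wnt means were 4.32 ± 0.83 for miR-182, 4.36 ± 0.72 for miR-96 and 0.13 ± 0.84 for miR-183 (SD, n = 3). The call for miR-183 against normal gland was then lost (-0.57, adjusted p = 0.345), and that for miR-96 grew to 3.24 (adjusted p = 9.59e-06).

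MMTV-H2N tumors held intermediate levels. miR-182 was 2.96, 1.54, 2.34, 1.60 and 0.55, lower than in normal gland by 1.43 ± 0.62 (adjusted p = 0.0467), and 1 tumor overlapped the glands. This call was lost on leaving out any of 10 single arrays, with values of -1.72 to -1.12 over all arrays left out. miR-96 was between 0.51 and 2.27 and miR-183 between -1.40 and 0.27, and neither was called against normal gland. The spots of miR-96 disagreed in replicates 2, 3 and 4, where 1 spot gave 89.7, 39.1 and 36.4 and the other 3 gave 408 to 1767.

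MMTV-C-Myc tumors had low levels of all 3 members. miR-182 and miR-96 were called lower there than in each of the 4 other luminal models, and miR-183 was called lower than in MMTV-Hras and MMTV-PymT tumors but not than in MMTV-H2N (adjusted p = 0.109) or MMTV-Wnt tumors (adjusted p = 0.443). miR-182 was 1.42, -1.40, -0.03 and -1.93, below every normal gland, with a difference of -3.71 ± 0.66 (adjusted p = 6.13e-06). It exceeded 3 times the floor in 2 of the 4 tumors, as did miR-96, and miR-183 in 0 of 4. With arrays scaled to their median, miR-183 was at least 12.0-fold higher in MMTV-Hras tumors than in MMTV-C-Myc tumors. In normal gland it was at least 2.56-fold higher than in MMTV-C-Myc tumors under that scaling. For these lower bounds the level in the dim group was set, array by array, at 3 times the floor.

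Basal tumors carried signals of the members close to the floor. miR-182 exceeded 3 times the floor on 3 of 17 basal arrays, miR-183 on 5 and miR-96 on 8, against 22, 20 and 22 of 24 luminal arrays and all 5 normal gland arrays. Of all 334 miRNAs, 31 to 85 did so on C3TAg, 91 to 111 on p53-/- and 168 to 274 on Brca1-/-p53+/- arrays. The range was 172 to 304 on luminal and 199 to 236 on normal gland arrays. Low counts on C3TAg and p53-/- arrays are therefore not particular to the members. In C3TAg tumors miR-182 and miR-183 exceeded 3 times the floor on 0 of 5 arrays, with signals of 111 to 277 for miR-182 at 1.07 to 1.73 times the floor. The fold against C3TAg is thus only bounded, and with arrays scaled to their median miR-182 was at least 14.6-fold higher in MMTV-Hras tumors and at least 4.02-fold higher in normal gland. The measured means gave 33.9-fold (adjusted p = 2.42e-09) and 9.33-fold (adjusted p = 2.33e-05). For C3TAg minus normal gland, miR-182 kept its direction and call under 61 of 64 alternatives, many of which left out a single array. The call was lost under 2, among them the 75th percentile (-1.06, adjusted p = 0.0920). The direction was reversed under 1, the brightest miRNAs as reference (0.090, adjusted p = 0.889).

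**Figure D2:**
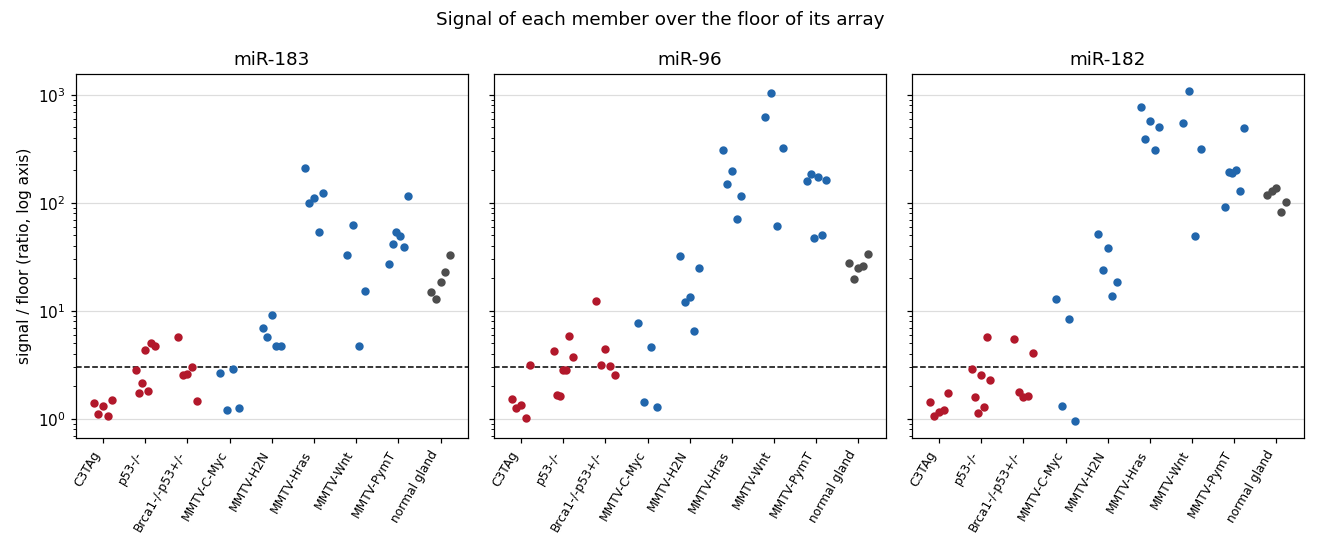
Signal of each member divided by the floor of its array (5th percentile of spots; logarithmic axis) on 46 arrays by group, with a dashed line at 3 times the floor; basal models are red, luminal blue and normal gland grey. C3TAg tumors lie at or below the line except 1 array for miR-96, and MMTV-Hras, MMTV-PymT and normal gland arrays all lie above it.

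In the 2 other basal models miR-182 was also low and was mostly read near background. In p53-/- tumors miR-182 ran from -0.32 over a median of 0.37 to 1.90, at signals of 101 to 355, and exceeded 3 times the floor on 1 of 7 arrays. It was lower than in normal gland by 2.66 ± 0.58 (adjusted p = 0.000123), and no tumor reached a gland. This call was lost with the brightest miRNAs as reference (-0.78, adjusted p = 0.147). In Brca1-/-p53+/- tumors miR-182 was -0.78, -1.34, -1.32, -1.91 and -0.78, at signals of 36.6 to 407, and exceeded 3 times the floor on 2 of 5 arrays. It was called lower than in normal gland (adjusted p = 5.41e-08), with a difference of -4.45 at median scaling and -2.32 with the brightest miRNAs as reference. Scaled levels of p53-/- and Brca1-/-p53+/- tumors were called apart for each member in the pairwise tests (adjusted p = 0.00726 for miR-182). These pairs enter the counts of pairs, but none of these calls is read as a difference in level. The geometric mean signals of miR-182, 169 in p53-/- and 124 in Brca1-/-p53+/- tumors, were both near the floor. Those of miR-96 were 231 and 207, and those of miR-183 were 230 and 136. The array medians ran from 94.9 to 203 in p53-/- and from 92.3 to 907 in Brca1-/-p53+/- tumors. miR-183 and miR-96 each exceeded 3 times the floor on 3 of 7 p53-/- arrays, and on 2 and 4 of 5 Brca1-/-p53+/- arrays.

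Few neighbours in the order of group means could be told apart. For miR-182 the order ran from MMTV-Hras over normal gland, MMTV-Wnt, MMTV-PymT, MMTV-H2N, p53-/-, C3TAg and MMTV-C-Myc to Brca1-/-p53+/-. Of its 8 steps, 2 passed the test, MMTV-Hras over normal gland and MMTV-PymT over MMTV-H2N (1.39 ± 0.60, adjusted p = 0.0434). For miR-96 the order was MMTV-Hras, MMTV-Wnt, MMTV-PymT, normal gland, MMTV-H2N, p53-/-, C3TAg, Brca1-/-p53+/- and MMTV-C-Myc, and only the step from MMTV-PymT to normal gland passed. For miR-183 it was MMTV-Hras, MMTV-PymT, p53-/-, normal gland, C3TAg, MMTV-H2N, MMTV-Wnt, Brca1-/-p53+/- and MMTV-C-Myc, and only the first step passed (1.68 ± 0.50, adjusted p = 0.00414). The place of MMTV-Wnt in the order for miR-183 rests on its replicate 3, since without it the mean of 0.13 lay above those of C3TAg (-0.023) and MMTV-H2N tumors (-0.31).

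The comparison of basal with luminal tumors, which the study made to find miRNAs that separate the classes, called 2 of the 3 members lower in basal tumors. Of all 334 miRNAs 26.0% were lower and 44.6% higher, around a median difference of 0.55. miR-182 had a geometric mean signal of 153 in the 17 basal tumors and 2800 in the 24 luminal ones, and its scaled level differed by -2.81 ± 0.53 (adjusted p = 6.42e-06). miR-96 had mean signals of 214 and 1696 and differed by -1.61 ± 0.47 (adjusted p = 0.00232). miR-183, at 178 and 617, differed by -0.41 ± 0.47 (adjusted p = 0.445), and the interval of 2 standard errors, -1.35 to 0.53, holds falls of more than 2-fold. The ranges of the classes overlapped for every member, and MMTV-C-Myc tumors lay within or near the range of basal ones.

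Both calls depended on the scaling. With the brightest miRNAs as the reference, miR-182 stood at -0.79 (adjusted p = 0.131), miR-96 at 0.41 and miR-183 at 1.61, while without scaling all 3 were negative and miR-182 stood at -4.19. The median of all miRNAs moved from 2.57 to -0.83 between these settings. With model as a random block the call for miR-182 held (-2.78, adjusted p = 0.0180) and that for miR-96 was lost (-1.62, adjusted p = 0.165), as it was among FVB tumors alone (-1.71, adjusted p = 0.0596).

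**Figure D3:**
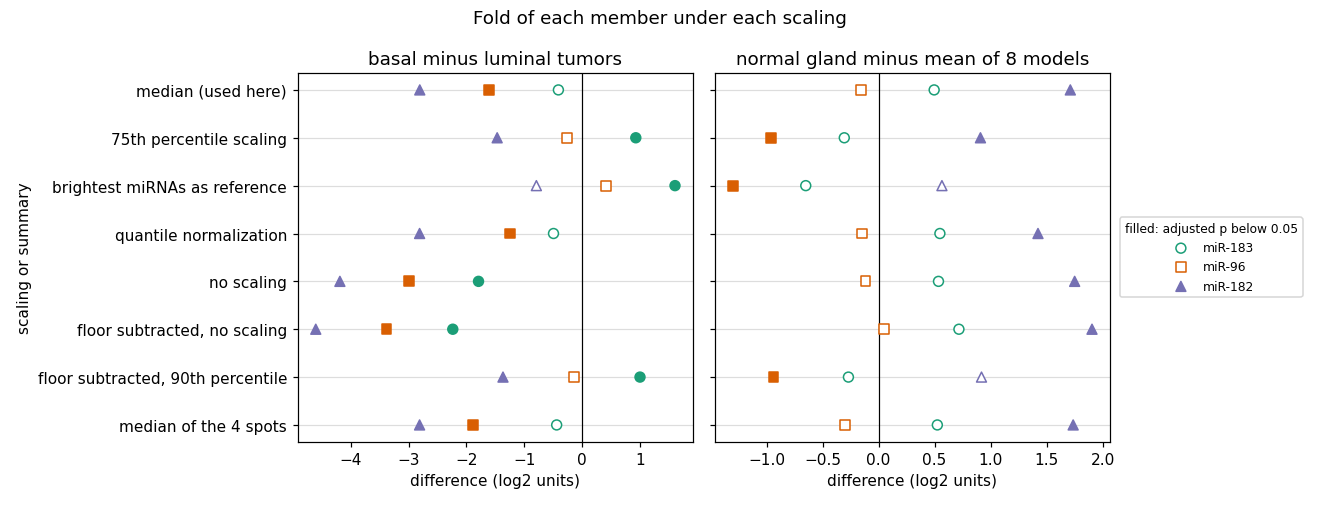
Difference between basal and luminal tumors (left) and between normal gland and the mean of the 8 models (right), in log2 units, for each member under 8 ways of scaling or summarizing the arrays; filled symbols have an adjusted p below 0.05. Settings that subtract 1 value per array move the 3 symbols of a panel alike, and miR-182 is at -2.81 in the left panel and at 1.71 in the right panel under median scaling.

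Normal gland held more miR-182 than the mean of the 8 models, by 1.71 ± 0.47 (adjusted p = 0.00146), where 27.5% of all miRNAs were higher and 37.7% lower. The call was lost with the brightest miRNAs as reference (0.56, adjusted p = 0.186) and after floor subtraction with scaling to the 90th percentile (0.92, adjusted p = 0.0551). miR-183 differed by 0.50 ± 0.40 (adjusted p = 0.271) and miR-96 by -0.16 ± 0.46 (adjusted p = 0.760), with intervals of -0.30 to 1.29 and -1.08 to 0.76. These intervals hold for median scaling. miR-96 was called lower in normal gland at the 75th percentile (-0.96, adjusted p = 0.0328), with the brightest miRNAs (-1.30, adjusted p = 0.00220) and after floor subtraction with the 90th percentile (-0.94, adjusted p = 0.0367). Without MMTV-Hras tumors, the value of miR-183 rose to 0.89 and passed (adjusted p = 0.0377).

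The difference between 2 members on the same array is not moved by a scaling that subtracts 1 value per array, though quantile normalization does move it. Probes differ in brightness, so the size of a difference gives no order of the members, and only its change between groups was read. Basal and luminal tumors differed in all 3 differences. The permutation took single tumors as units although class goes with the model, and the model was not fitted as a block here. The p-values may therefore be too small. That of miR-182 and miR-183 was -0.22 ± 0.60 in basal and 2.18 ± 1.08 in luminal tumors (SD, n = 17 and 24), a change of -2.40 (permutation test, two-sided, adjusted p = 3.0e-05 over 3 pairs, from the smallest p the permutations allow). That of miR-182 and miR-96 changed by -1.20 (adjusted p = 4.5e-05) and that of miR-96 and miR-183 by -1.20 (adjusted p = 0.00168, and 0.0745 among FVB tumors alone). With quantile normalization these last changes were -1.56 and -0.76 (adjusted p = 0.0361). Without MMTV-Wnt tumors that of miR-96 and miR-183 was -0.67 (adjusted p = 0.00800). The mean difference of miR-96 and miR-183 was 4.10 in MMTV-Wnt, 1.34 in MMTV-H2N and 1.20 in MMTV-PymT tumors. It was 0.62 in MMTV-C-Myc and 0.45 in MMTV-Hras tumors, against 0.61 in Brca1-/-p53+/-, 0.27 in C3TAg and 0.012 in p53-/- tumors. Both members of a pair exceeded 3 times the floor on few basal arrays (2 of 17 for miR-182 and miR-183), and signals near the floor bring such a difference towards 0. These changes therefore do not measure the ratio of the members in basal tumors.

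All 3 members exceeded 3 times the floor on every array in 5 groups, MMTV-H2N, MMTV-Hras, MMTV-Wnt, MMTV-PymT and normal gland. Among them MMTV-Wnt was set against each of the other 4, a comparison chosen after the values were seen. Exact permutation tests of it entered only the count of alternative values given last, and the values are described here without them. The difference of miR-96 and miR-183 was 4.23, 4.08, 3.70 and 4.39 in the MMTV-Wnt tumors and 0.55, 0.59, 0.82, 0.40 and -0.10 in the MMTV-Hras tumors. It was 0.03 to 0.87 in normal gland, 0.46 to 2.40 in MMTV-H2N and -0.20 to 2.56 in MMTV-PymT tumors, so MMTV-Wnt lay above every array of each other group. The tumor with low epithelial miRNAs, at 3.70, held this difference as well, and without it the change against the other groups was 2.90 to 3.81.

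**Figure D4:**
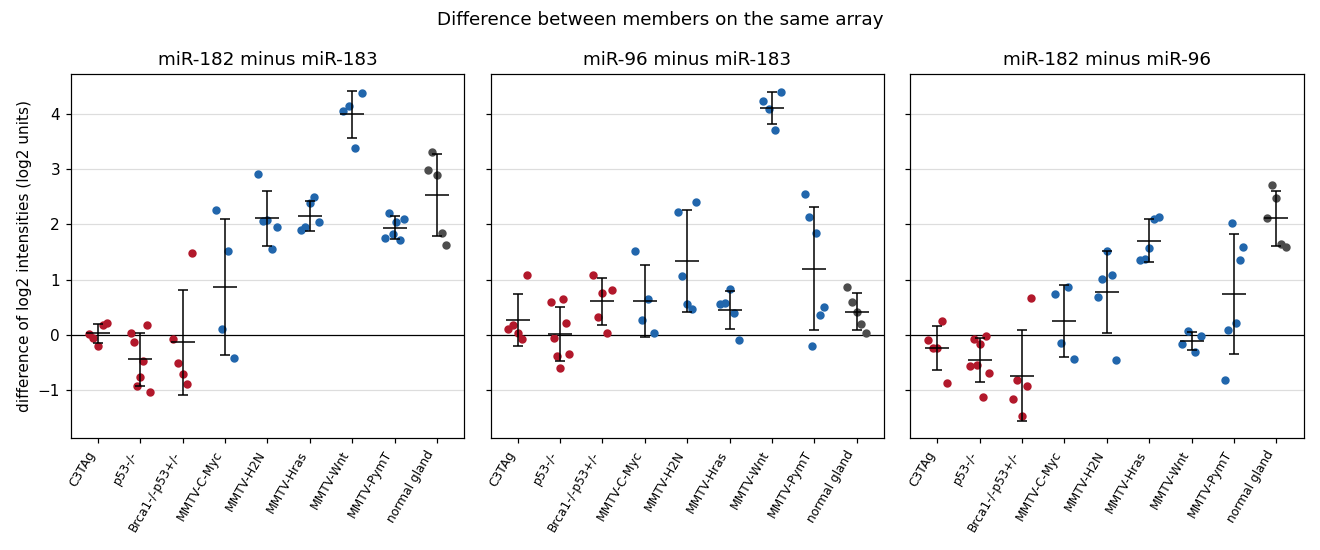
Difference of log2 intensities between 2 members on the same array (points) for 46 arrays by group, with mean and SD in black; basal models are red, luminal blue and normal gland grey. The 4 MMTV-Wnt tumors lie at 3.39 to 4.38 in the left panel and at 3.70 to 4.39 in the middle panel, above all other arrays.

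The change of the miR-96 and miR-183 difference between MMTV-Wnt and the other groups ran from 2.76 (MMTV-H2N) to 3.68 (normal gland). With quantile normalization these values were 1.90 and 2.91. That of miR-182 and miR-183 was 3.39 to 4.38 in MMTV-Wnt tumors, and higher than in the other groups by 1.46 (normal gland) to 2.05 (MMTV-PymT), without overlap. The difference of miR-182 and miR-96 was -0.32 to 0.06 in MMTV-Wnt tumors. It was lower than in MMTV-Hras tumors by 1.82 and than in normal gland by 2.22, without overlap, and it overlapped that of MMTV-H2N and MMTV-PymT tumors. Values on all 4 MMTV-Wnt arrays, on MMTV-Hras replicates 1 and 2 and on 1 MMTV-C-Myc array were deposited with 3 digits, whereas the others carry more. In MMTV-Wnt tumors the effect of the model cannot be told apart from what sets these arrays apart. The 2 such MMTV-Hras arrays had differences of miR-96 and miR-183 of 0.55 and 0.59, within the range of the other MMTV-Hras tumors.

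Within groups the levels of the members were correlated over arrays. After the mean of each group was subtracted, the 46 deviations of miR-182 and miR-183 had Pearson r = 0.81 and Spearman rho = 0.68, those of miR-182 and miR-96 r = 0.80 and rho = 0.70, and those of miR-96 and miR-183 r = 0.78 and rho = 0.67. Each had an adjusted p of at most 2.0e-05 over the 3 pairs (permutation within groups). Leaving out the 2 arrays farthest from the median, MMTV-Wnt replicates 2 and 3, gave r = 0.67, 0.69 and 0.65. Within the 17 basal tumors r was 0.44 for miR-182 and miR-183, 0.63 for miR-182 and miR-96 and 0.73 for miR-96 and miR-183, and within the 24 luminal tumors it was 0.90, 0.85 and 0.79. The 5 normal glands were too few for a value of their own, and the gland highest in miR-182 was not the highest in miR-183. The members of a pair are read from the same array and share its scaling. Correlations of this size were not particular to the cluster, since miR-181c reached r = 0.79 with miR-183, and miR-200c reached 0.78 with both miR-96 and miR-182.

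Over the 46 scaled levels, the miRNAs most like a member were mostly its fellows and members of the miR-200 family, which keeps epithelial cells in their state. These correlations describe levels across groups and are not tested. For miR-182 the highest were miR-200b (r = 0.88), miR-96 (0.87) and miR-28 (0.86), and for miR-96 they were miR-182 (0.87), miR-200b (0.81) and miR-181c (0.79). For miR-183 they were miR-200c (0.76), miR-429 (0.75) and miR-182 (0.73). Among 333 miRNAs miR-183 ranked 21 in likeness to miR-182, whereas over deviations from group means it ranked 1.

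The miR-200 family was set beside the cluster as the list for epithelium. Each of the 5 fell in basal against luminal tumors, by a median of -3.31 where that of all miRNAs was 0.55, and 2 of 5 were higher in normal gland than in the models, as were 27.5% of all miRNAs. Its summed signal ran from 1629 to 2309 in C3TAg, from 3268 to 9879 in p53-/- and from 421 to 5987 in Brca1-/-p53+/- tumors. In MMTV-Hras tumors it ran from 220175 to 305597 and in normal gland from 51038 to 139014. MMTV-C-Myc tumors held 9707 to 24394, more than every C3TAg and Brca1-/-p53+/- tumor. Set against 26.0% of all miRNAs that were lower and 44.6% that were higher, among 4 miRNAs of stroma and smooth muscle 3 were lower in the basal class, of 4 leukocyte miRNAs 2 were lower and 1 was higher, of 3 red cell miRNAs 1 was lower, and the 1 endothelial miRNA measured was higher. Of 3 skeletal muscle miRNAs 0 passed in limma, and 0 had an unadjusted p below 0.05. The part of cell makeup in the member values was not tested.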

How the data were processed

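The authors isolated total RNA, labelled it with the dye Hy3, hybridised it to a custom array and deposited the processed signal intensity of 1336 spots, 4 for each of 334 mouse miRNAs. They also deposited log2 values, which equalled the log2 intensity plus a constant per array and served as an alternative. Among the signal columns, 1 matched no label and was not used. Detection calls were not used.

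Here the array median was subtracted from log2 intensities and the 4 spots were averaged. Groups were fitted with limma 3.58.1 in R 4.3.3 (lmFit, eBayes, two-sided) over all miRNAs with Benjamini-Hochberg adjustment and a threshold of 0.05. Pairs of groups were adjusted over 12024 tests. Differences between members were tested between the classes by permutation (100000 resamples, Python 3.11.15). The code was tested on simulated data. The number of arrays limits the precision.

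Named miRNAs are the 3 members, the 3 most correlated with each, array miRNAs sharing bases 2 to 7 and the miR-200 family. Members, lists and the floor rule were chosen with earlier results of these data known. The study's methods name SAM, for which limma stands here. Alternatives covered scaling, background, dim miRNAs, random or replicate blocks, strain, models and arrays left out, and, added after seeing the data, the median of spots and the MMTV-Wnt comparison. Replicate numbers came from the labels and did not pair the arrays (mean correlation of deviations 0.028 for the same number and -0.0056 otherwise).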

Additional observations from a re-analysis of the deposited data

Results flagged for a closer look

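Arrays that stood apart within a group of 4 to 7 were sought by their gap to the nearest other array, over 54 sets of values, and 5 were found, where chance gives about 1 in 20. miR-183 was -0.84 in MMTV-C-Myc replicate 1, above the other 3 tumors, and -2.26 in Brca1-/-p53+/- replicate 5, below the other 4. The 4 spots gave 46.1, 60.4, 75.5 and 366 on the former array and 95.3, 98.8, 102 and 482 on the latter. On each array 1 high spot raised the value, and the gap of MMTV-C-Myc replicate 1 rests on that spot. miR-96 was 1.23 in C3TAg replicate 5, the only C3TAg array on which it exceeded 3 times the floor, and 2.27 in MMTV-H2N replicate 1, the highest of its group. The difference of miR-96 and miR-183 was 1.09 in C3TAg replicate 5. The signals of miR-183 in the first 2 of these arrays, and in the C3TAg array, were below 3 times the floor.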

How the results depend on the processing

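Of 2277 alternative values for 45 results, 2159 kept their direction and side of the threshold. Many alternatives left out a single array, and a result that was not called counts as kept while it stays uncalled in the same direction. The 45 results include the 12 MMTV-Wnt differences, judged by exact permutation tests of a comparison chosen after the values were seen. Their share of the kept values is therefore no support for them. The F statistics and correlations kept theirs under every alternative run. Counts of pairs have no direction and no p-value, so their place among the kept values carries no weight. They ran from 19 to 27 for miR-183, from 20 to 27 for miR-96 and from 24 to 28 for miR-182. Basal minus luminal, miR-183 was 0.93 at the 75th percentile, 1.61 with the brightest miRNAs as reference and 1.00 after floor subtraction with scaling to the 90th percentile, and it was -1.79 without scaling and -2.24 after floor subtraction alone. It was 0.23 without MMTV-Hras and 0.080 without Brca1-/-p53+/-. That of miR-96 was -0.27, 0.41 and -0.15 under the first 3 of these settings, -1.62 with model as a random block and -1.71 in FVB tumors alone, and that of miR-182 was -0.79 with the brightest miRNAs. Normal gland minus the models was -0.31, -0.65 and -0.27 for miR-183 and -0.96, -1.30 and -0.94 for miR-96, which then passed, under the first 3 settings, and for miR-182 it was 0.56 with the brightest miRNAs and 0.92 with the 90th percentile, where its call was lost. It was 0.89 for miR-183 without MMTV-Hras. For miR-96 it was 0.047 after floor subtraction alone, 0.14 without MMTV-Hras, 0.13 without MMTV-Wnt, 0.011 without MMTV-PymT and 0.0045 with 3-digit arrays as a factor. The change of the miR-96 and miR-183 difference between classes was -1.19 in FVB tumors and -0.85 without C3TAg and p53-/-, where it no longer passed. Against normal gland, miR-183 in MMTV-Wnt was 0.21 without scaling and 0.22 after floor subtraction alone. In Brca1-/-p53+/- tumors miR-183 was 0.35 with the brightest miRNAs and 0.078 with the 90th percentile, miR-96 was 0.53 and 0.28, and in C3TAg tumors miR-182 was 0.090 with the brightest miRNAs. The cause of these shifts was not tested.

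With replicate number as a block, basal minus luminal was -2.89 for miR-182, -1.68 for miR-96 and -0.53 for miR-183, and normal gland minus the models was 1.80, -0.10 and 0.58. The counts of pairs were 26, 23 and 19. Among named pairs the block ended the call of miR-96 between MMTV-PymT and normal gland and no other.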
